A study of Mus musculus with 2 samples.

Results

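The cells described here were endothelial cells of the mouse temporomandibular joint (TMJ) that carried transcripts of Plvap, Selp or Ackr1. They were chosen from their own counts. A barcode was kept when it held at least 500 genes, at most 10% mitochondrial transcripts and at most 1% hemoglobin transcripts. It entered the endothelial gate with at least 3 unique molecular identifiers (UMIs, each standing for 1 captured transcript) of Pecam1, Cdh5, Kdr and Flt1 summed and none of the leukocyte gene Ptprc. A gate cell became a member with at least 3 UMIs of Selp, Ackr1 and Plvap summed. The rule gave 80 members among 893 gate cells of the PBS library and 178 among 1210 gate cells of the CFA library, or 258 of 13380 barcodes in all.

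Complete Freund's adjuvant (CFA) is an oil emulsion of killed mycobacteria that causes a lasting local inflammation, and phosphate-buffered saline (PBS) was the control. Both groups were wild-type female C57BL/6 mice aged 8 to 10 weeks per the labels. Each mouse received 10 µL of CFA at 5 mg/mL or 10 µL of PBS in both TMJs, and tissue was collected 3 weeks later. The methods give n = 3, the tissue of a group went into 1 library, and leukocytes were depleted on CD45 beads before capture. With 1 library per condition there was no test between conditions, and the depletion means that the leukocytes around these vessels were not measured in proportion. Every interval below is a 95% interval that covers counting error only, not the spread between mice or captures.

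Plvap encodes the protein of the diaphragms that span fenestrae and caveolae of permeable endothelium. Selp encodes P-selectin, which is stored in granules of venular endothelium and captures rolling leukocytes, and Ackr1 encodes a chemokine receptor that does not signal through G proteins and marks venules. Postcapillary venules are the usual site of leukocyte entry into inflamed tissue, through selectins, chemokines held at the cell surface and the integrin ligands ICAM1 and VCAM1. Plvap alone does not mark venules, since fenestrated, angiogenic and sinusoidal endothelium also carry it.

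The libraries held 51146169 (PBS) and 53517206 (CFA) UMIs, of which members carried 1148069 and 2881714. Members had a median of 12900 UMIs in PBS and 13253.5 in CFA. The other gate cells were shallower, at 5492 and 3809 UMIs, and their median mitochondrial share was 1.69% and 0.5004% against 2.54% and 2.23% in members. The libraries shared 10 barcode sequences, none of them a member. The hemoglobin limit fell unevenly. Without it 161 PBS and 185 CFA cells met the rule, so the limit removed 81 cells from PBS and 7 from CFA, with median hemoglobin shares of 7.24% and 24.6%. The removed cells had a median of 4779 UMIs in PBS and 24043 in CFA, so the similar depth of members holds after the limit. Of all barcodes, 4554 of 7671 in PBS and 779 of 5709 in CFA were over it.

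Members made up 8.96% of gate cells in PBS (exact binomial interval 7.17% to 11.03%) and 14.7% in CFA (12.8% to 16.8%). As shares of all cells within the limits they made up 3.00% and 4.43%. The CFA share was the higher one in each of the 12 settings of the cell limits and the rule that were tried. These settings recut the same libraries and are not independent of each other. The gap narrowed when cells of other types were left out, as given below. The settings included no hemoglobin limit, a tighter one and thinning to equal depth, while the bead depletion was not varied. How much the limit, the depth of the other gate cells and the depletion add to the difference was not tested. When each cell was thinned to 2000 UMIs before the rule was applied, the shares were 5.43% and 8.79%.

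The 3 rule genes were not carried alike. Plvap (ENSMUSG00000034845, chr8:71497765-71511752, minus strand, GRCm38) was detected in 77 of 80 members in PBS and 173 of 178 in CFA. Selp (ENSMUSG00000026580, chr1:164115264-164150026, plus strand) was detected in 40 and 98 members, and Ackr1 (ENSMUSG00000037872, chr1:173331886-173333750, minus strand) in 18 and 57. The largest class carried Plvap with neither of the others, 38 PBS members (47.5%) and 78 CFA members (43.8%). All 3 genes were seen in 16 PBS members (20%) and 53 CFA members (29.8%), and Plvap with Selp in 21 and 40. The rule's edge was thinly filled in PBS, where 5 members had exactly 3 rule UMIs and 16 gate cells had exactly 2. In CFA 18 members had exactly 3 and 24 gate cells had exactly 2. Summed over members and scaled to counts per 1000000 UMIs (CPM), Plvap stood at 949 in PBS and 967 in CFA, Selp at 554 and 640, and Ackr1 at 163 and 269. These are the values the rule used and are given as a description.

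**Figure D1:**
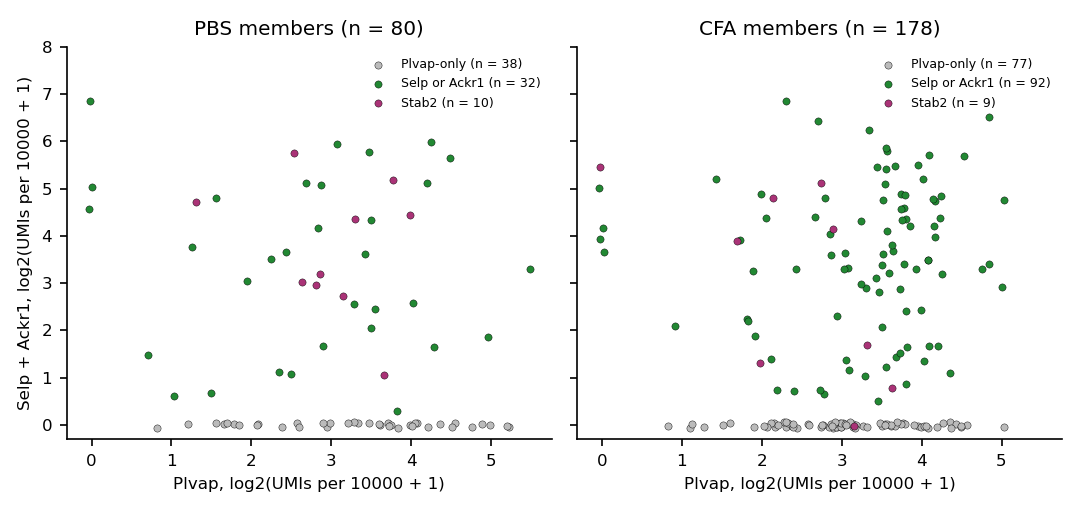
Each point is 1 member, placed by its Plvap level (x axis) and its summed Selp and Ackr1 level (y axis), both as log2 of UMIs per 10000 plus 1, with PBS on the left and CFA on the right. Members without a Selp or Ackr1 UMI lie along the bottom (38 of 80 in PBS, 78 of 178 in CFA), and members with a Stab2 UMI (10 and 9) are marked apart.

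The members were therefore not a single vessel type. A total of 3 subsets were read from the counts, and since they were defined by Selp, Ackr1 and Stab2 their levels are descriptions without a test. Members with a Stab2 UMI, a scavenger receptor of sinusoidal endothelium, numbered 10 in PBS (12.5%, 6.16% to 21.8%) and 9 in CFA (5.06%, 2.34% to 9.38%). Members with Selp or Ackr1 and no Stab2 numbered 32 and 92, and members with Plvap only and no Stab2 numbered 38 and 77. The name venular fitted the second subset, while the other subsets carried other markers, so the cells are called members below.

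The Selp or Ackr1 subset held the venular profile. Sele, which encodes E-selectin and lies near Selp on chromosome 1 (chr1:164048234-164057677, plus strand), stood at 294 CPM in PBS and 171 in CFA in this subset. In the Plvap-only subset Sele had 4 UMIs in PBS (7.24 CPM) and 0 in CFA, where a count of 0 allows up to 2.40 CPM. Sele was not particular to the subset, since the Stab2 members held it at 257 CPM in PBS, in 9 of 10 cells, and at 43.8 CPM in CFA. Vwf, the von Willebrand factor of endothelial granules, stood at 615 and 436 CPM against 161 and 87.3 in Plvap-only members. Il6st, the shared signalling receptor of the interleukin 6 family, stood at 919 and 1009 CPM against 417 and 242. The integrin ligand Vcam1 stood at 576 and 446 CPM against 10.9 and 171. Il1r1, the interleukin 1 receptor, stood at 206 and 440 CPM against 45.3 and 73.7. Ackr1, a gene that helped define the subset, stood at 250 and 532 CPM there and at 514 and 123 CPM in Stab2 members. For Sele, Vwf, Il6st, Vcam1 and Il1r1 the Selp or Ackr1 subset was higher than the Plvap-only subset in both libraries.

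The Plvap-only subset carried genes of angiogenic, arterial and, in some cells, lymphatic endothelium beside venous ones. Esm1, a tip cell gene, stood at 210 CPM in PBS and 36.9 in CFA. It had 1 UMI in PBS and 0 in CFA in the Selp or Ackr1 subset. Of the members with an Esm1 UMI, 2 of 17 in PBS and 0 of 7 in CFA also had a Selp UMI. The chemokine gene Cxcl12 stood at 1279 and 943 CPM in Plvap-only members and at 567 and 88.9 in the Selp or Ackr1 subset. The arterial connexin gene Gja4 stood at 74.2 and 236 CPM against 35.4 and 3.56, and the arterial semaphorin gene Sema3g at 56.1 and 139 against 4.43 and 2.13. The notch target Hey1 stood at 36.2 and 68.9 CPM, against 0 UMIs in PBS and 4.98 CPM in CFA. At least 20 UMIs of the lymphatic list were held by 5 PBS and 10 CFA members, which carried 76.8% and 76.4% of its UMIs. Of these members 1 and 2 had a Selp or Ackr1 UMI. Prox1, a gene of that list, had 73 and 40 UMIs in Plvap-only members, of which 29 and 22 lay in 1 cell. It had 24 and 25 UMIs in the Selp or Ackr1 subset. With each cell thinned to 1000 UMIs, 44.7% of PBS and 48.7% of CFA Plvap-only members held at least 3 arterial list UMIs. The shares were 40.5% and 18% of all members with Selp or Ackr1, and 49.4% and 35.9% of the other gate cells. For the venous list they were 63.2% and 65.4% of Plvap-only members, 95.2% and 92% of members with Selp or Ackr1, and 37.8% and 26.3% of the other gate cells. Each class was thinned in a random draw of its own, so the shares also vary with the draw. In CFA the arterial list was held by 38 Plvap-only members and 18 with Selp or Ackr1, but by 48 in the draw over all members.

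The Stab2 members, summed, carried sinusoidal genes that the rule did not use. Most of them in PBS held 5 or more Stab2 UMIs, up to 74. In CFA most held only 1 or 2, so the CFA subset rests on few Stab2 UMIs per cell and may not be the same kind of cell. Mrc1, the mannose receptor, was detected in 10 of 10 Stab2 members in PBS and 7 of 9 in CFA. It stood at 514 and 197 CPM there, and it had at most 1 UMI in either other subset of either library. Adamts5, a protease of proteoglycans, stood at 1416 and 965 CPM in Stab2 members, against 12.02 to 38.03 in the other subsets. Tfpi, which inhibits the start of coagulation, stood at 1201 and 640 CPM against 31.0 to 78.3, and F8, coagulation factor VIII, at 625 and 460 against 9.05 to 69.0. Fibroblast transcripts were also high in the PBS Stab2 members, with the collagen gene Col1a1 at 5024 CPM in 6 of 10 cells and the proteoglycan gene Dcn at 867 CPM, against 62.0 and 28.8 CPM in the Selp or Ackr1 subset. In CFA Stab2 members Col1a1 stood at 206 CPM and Dcn at 189 CPM. The part of these transcripts in the levels of the Stab2 members was not tested. In CFA 1 Stab2 member of 87548 UMIs held 38.4% of the subset's UMIs, and 152 of the subset's 156 Prox1 UMIs lay in 1 cell. The member of 87548 UMIs had 1 Stab2 UMI and none of Ackr1, Sele or Ubd. It entered the total that the CFA levels of this subset were scaled by, but added nothing to the counts of Ackr1, Sele and Ubd.

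**Figure D2:**
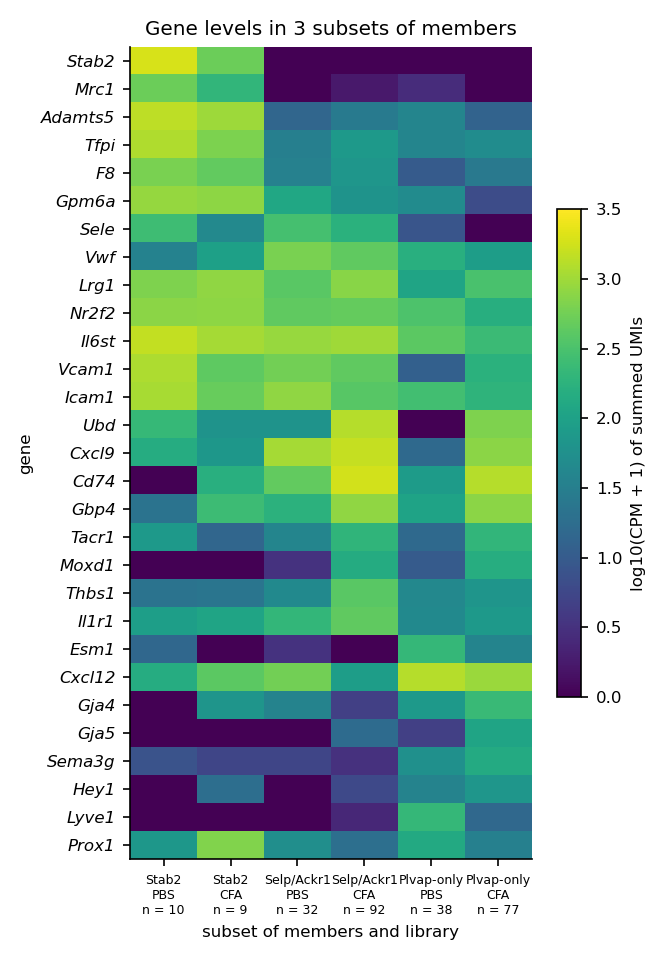
Levels of 29 genes (y axis) in the 3 subsets of members in each library (x axis, with the number of cells), coloured by log10 of CPM plus 1 of the summed UMIs. Stab2 members hold Mrc1, Adamts5, Tfpi and F8, Selp or Ackr1 members hold Vwf, Sele lies in both of these subsets, and Plvap-only members hold Esm1, Gja4, Sema3g and Hey1.

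Over all genes with at least 20 UMIs in the cells compared, 90 of 7376 (1.22%) were at least 2-fold higher in the members with Selp or Ackr1, Stab2 members included, than in Plvap-only members of both libraries, and 130 (1.76%) were at least 2-fold lower. Of the venous list 7 of 15 measured genes were higher and none lower. Of the arterial list 1 of 15 was higher and 7 were lower. Of the sinusoidal list 4 of 8 were higher, and of the tip and angiogenic list 3 of 13 were lower.

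Set beside the other gate cells of the same library, venous and sinusoidal genes stood higher in members and capillary genes lower. Of 11883 genes measured in both libraries, 272 (2.29%) were at least 2-fold higher in members in both and 506 (4.26%) at least 2-fold lower in both. This split used counts of the same cells, so it carries no test. Of the venous list 9 of 16 genes were higher and none lower, with median log2 ratios of 1.70 in PBS and 1.76 in CFA. Of the sinusoidal list 6 of 8 were higher, with medians of 2.71 and 2.49. Of the capillary list none of 14 was higher and 6 were lower, with medians of -0.93 and -1.16.

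Lrg1, a secreted glycoprotein of inflamed and venular endothelium, stood at 295 CPM in PBS members and 573 in CFA members, against 9.96 and 25.8 in the other gate cells. Slco2a1, the prostaglandin transporter, stood at 215 and 264 CPM against 11.9 and 8.48. Sele stood at 152 and 87.1 CPM in members. The other gate cells had no Sele UMI in PBS, which allows up to 0.439 CPM, and stood at 1.54 CPM in CFA. Nr2f2, the transcription factor of venous identity, stood at 430 and 356 CPM against 161 and 95.8. The insulin receptor gene Insr stood at 536 and 645 CPM against 81.7 and 146. Each of these genes was higher in members in both libraries.

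Capillary genes stood the other way. Car4, a carbonic anhydrase at the surface of capillaries, stood at 35.7 CPM in PBS members and 26.7 in CFA members against 289 and 216 in the other gate cells. Timp4, a protease inhibitor, stood at 60.1 and 22.9 CPM against 541 and 672. Gpihbp1, which carries lipoprotein lipase across capillary endothelium, stood at 392 and 259 CPM against 837 and 691, and Lpl, that lipase, at 117 and 113 against 600 and 1006. The caveolar coat gene Cav1 stood at 940 and 778 CPM against 1599 and 1605. The pan-endothelial genes were closer, with Pecam1 at 1193 and 1320 CPM against 1027 and 1139, and Cdh5 at 718 and 841 against 863 and 840.

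**Figure D3:**
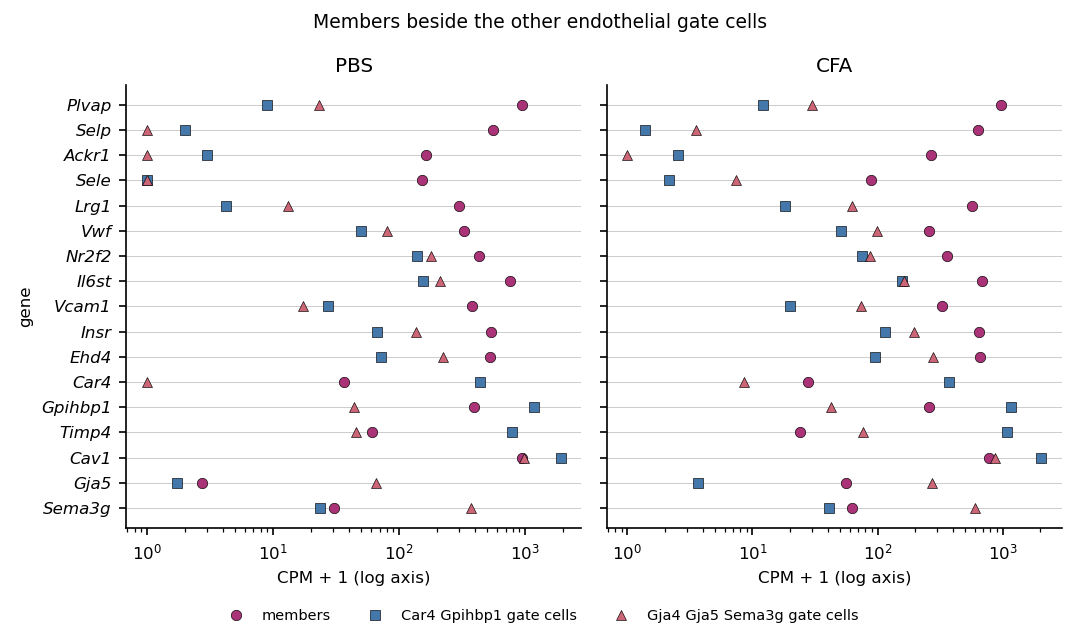
CPM plus 1 on a log axis (x) of 17 genes (y) in members (circles), in other gate cells with at least 3 UMIs of Car4 and Gpihbp1 summed (squares) or of Gja4, Gja5 and Sema3g summed (triangles), PBS on the left and CFA on the right. Members lie furthest right for Plvap, Selp, Ackr1, Sele, Lrg1, Vwf, Nr2f2, Il6st, Vcam1, Insr and Ehd4, the first 3 of which chose them.

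Between conditions, antigen presentation and interferon genes were higher in CFA members. Of 10698 genes with at least 20 UMIs in members of both libraries together, 565 (5.28%) were at least 2-fold higher in CFA and 571 (5.34%) at least 2-fold lower, and the median log2 ratio of all of them was -0.01. Of the antigen presentation list 16 of 26 measured genes were at least 2-fold higher, none was 2-fold lower, all 26 had a ratio over 1, and the median log2 ratio was 1.23. Of the interferon response list 17 of 41 were at least 2-fold higher, 1 was 2-fold lower, 36 had a ratio over 1, and the median was 0.90. The other gate cells had 5.42% of genes at least 2-fold higher in CFA and 6.54% at least 2-fold lower. Their antigen presentation list summed to 3355 CPM in PBS and 6624 in CFA, against 4623 and 11272 in members. After thinning to 1000 UMIs, at least 3 UMIs of this list were held by 8.94% and 61.8% of fibroblasts and by 8.19% and 47.9% of glia. The fibroblast and glia classes were not kept apart, so a cell could be in both. Higher antigen presentation genes in CFA were therefore not particular to members.

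Class II genes and their partners had the highest ratios of that list. The invariant chain gene Cd74 stood at 219 CPM in PBS and 1473 in CFA members, a ratio of 6.74 (5.93 to 7.68), and 74.1% of its PBS UMIs lay in 1 cell. Members with a Cd74 UMI made up 11.3% in PBS and 83.7% in CFA. H2-Aa, a class II chain, stood at 54.9 and 321 CPM (5.85, 4.53 to 7.68), and H2-Eb1 at 48.8 and 327 CPM (6.70, 5.12 to 8.94). A single PBS cell held 273 of the 427 PBS UMIs of 4 class II genes, and without the top cell of each library the ratio was 25.1 for Cd74, 12.2 for H2-Aa and 12.7 for H2-Eb1. The class II transactivator Ciita stood at 6.10 and 30.2 CPM (4.95, 2.30 to 12.7). At least 3 UMIs of 4 class II genes were held by 8 of 80 PBS members and 141 of 178 CFA members.

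To compare cells of unequal depth, each was thinned to 1000 UMIs, which left out no member, 15 PBS and 42 CFA cells of the other gate cells, and 10 and 12 glia. Cd74 was then seen in 5% of PBS and 58.4% of CFA members. It was seen in 0.125% and 10.1% of the other gate cells, and in 0% and 7.62% of glia. Glia are not an empty control here, since 8.19% of PBS and 47.9% of CFA glia held at least 3 antigen presentation list UMIs after thinning. The myeloid gene Lyz2 was seen in 18.5% of CFA members, 34.0% of the other CFA gate cells and 32.1% of CFA glia. Unthinned it was seen in 69.7% of CFA members. The part of transcripts from other cells in the Lyz2 and Cd74 shares was not tested. The 14 myeloid genes stood at 164 CPM in PBS and 367 in CFA members, with Cd68, C1qa, C1qb, C1qc and Tyrobp at 0 UMIs in PBS members and all 14 detected in CFA members. In the other gate cells they stood at 109 and 717 CPM.

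Class I genes were higher by smaller ratios. H2-K1 stood at 1240 and 2514 CPM (2.03, 1.91 to 2.15), H2-D1 at 711 and 1498 CPM (2.11, 1.96 to 2.27) and their partner B2m at 736 and 1767 CPM (2.40, 2.23 to 2.59). The peptide transporter gene Tap1 stood at 74.9 and 209 CPM (2.78, 2.22 to 3.53), and Nlrc5, the class I transactivator, at 33.1 and 142 CPM (4.28, 3.06 to 6.13). H2-K1, H2-D1 and other class I genes are close paralogs, so reads can be shared among them.

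Of the interferon genes, the guanylate-binding proteins, which act against intracellular pathogens, were among the higher ones. Gbp4 stood at 123 CPM in PBS and 770 in CFA members (6.27, 5.28 to 7.48), Gbp5 at 71.4 and 262 CPM (3.67, 2.92 to 4.67) and Gbp7 at 143 and 422 CPM (2.96, 2.51 to 3.5015). The immunity GTPase gene Igtp stood at 105 and 348 CPM (3.30, 2.73 to 4.02). Other genes of the list stood lower in CFA, with Irf1 at 613 and 442 CPM (0.722, 0.658 to 0.792) and Isg15 at 219 and 169 CPM (0.771, 0.661 to 0.902). The other gate cells had CFA to PBS ratios of 8.50 for Gbp4, 3.98 for Gbp5 and 2.57 for Gbp7, so these genes were also higher outside the members.

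**Figure D4:**
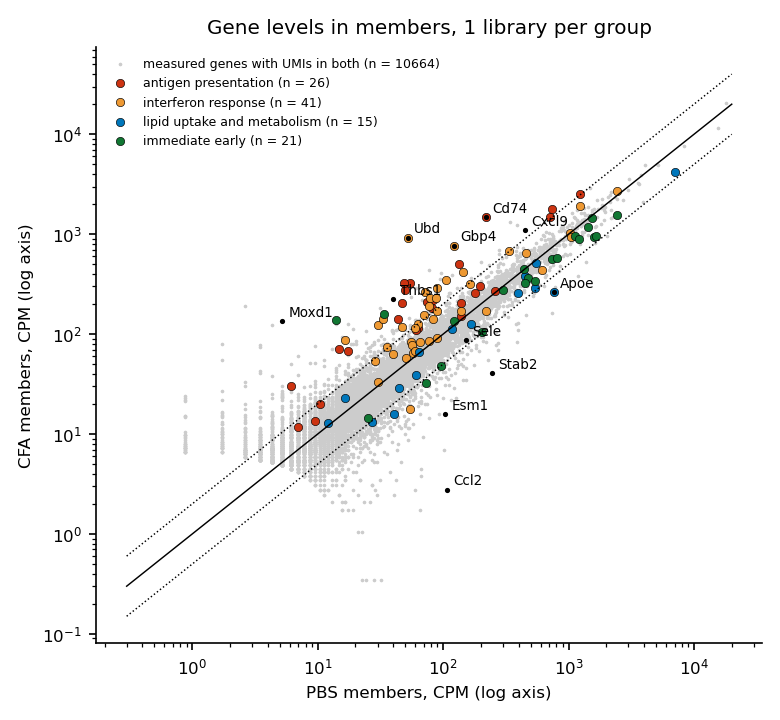
Each point is a gene with UMIs in members of both libraries (10664 genes), with its CPM in PBS members on the x axis and in CFA members on the y axis, both logarithmic. The solid line marks equal levels and the dotted lines a 2-fold difference, and antigen presentation (26 genes), interferon response (41), lipid (15) and immediate early (21) genes are coloured. Antigen presentation genes lie above the line of equal levels.

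Because many interferon genes were higher in CFA, their promoters were searched for a pair of interferon motifs, the gamma-activated site with the letters TTCNNNGAA and the interferon-stimulated response element with the letters GAAANNGAAA, on both strands. Windows ran from 250 bases before to 50 bases after each start site in RefSeq, build GRCm38.p6. Of the 17 interferon and 16 antigen presentation genes that were at least 2-fold higher in CFA 23 matched a RefSeq entry, and of their 27 windows 10 (37.0%) held either motif. All 32851 windows held either motif in 11.3%, and the 10898 windows of genes measured in members in 9.56%. The set was drawn from interferon and antigen presentation lists and by ratios in these data. Its higher share can follow from that choice and carries no test. The list genes that were not 2-fold higher in CFA were not tallied. Of 9 matched genes among the 12 with the highest CFA to PBS ratio, 2 held the first motif and none the second. The 250 bases before the start of 4 genes follow, 3 with both motifs and Ubd with neither, with the matches in capitals. All 4 lie on the plus strand: Gbp5 at chr3:142496684-142496933, Gbp7 at chr3:142530086-142530335, Igtp at chr11:58199306-58199555 and Ubd at chr17:37193642-37193891. Gbp4 and Cd74 are missing from the table.
Gbp5: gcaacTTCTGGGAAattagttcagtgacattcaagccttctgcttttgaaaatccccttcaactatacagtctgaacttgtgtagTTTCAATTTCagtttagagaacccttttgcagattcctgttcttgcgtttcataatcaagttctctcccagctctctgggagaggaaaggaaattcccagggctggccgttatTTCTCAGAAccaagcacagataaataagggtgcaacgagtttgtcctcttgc
Gbp7: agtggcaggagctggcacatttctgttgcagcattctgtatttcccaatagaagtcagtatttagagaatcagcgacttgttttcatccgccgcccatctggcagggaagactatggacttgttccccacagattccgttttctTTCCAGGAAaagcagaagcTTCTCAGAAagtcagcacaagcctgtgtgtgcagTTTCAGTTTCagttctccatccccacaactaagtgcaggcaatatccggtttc
Igtp: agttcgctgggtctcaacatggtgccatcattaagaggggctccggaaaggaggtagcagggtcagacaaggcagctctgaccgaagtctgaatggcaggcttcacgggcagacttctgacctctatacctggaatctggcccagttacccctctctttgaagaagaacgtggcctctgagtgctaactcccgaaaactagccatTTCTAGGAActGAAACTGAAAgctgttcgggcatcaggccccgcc
Ubd: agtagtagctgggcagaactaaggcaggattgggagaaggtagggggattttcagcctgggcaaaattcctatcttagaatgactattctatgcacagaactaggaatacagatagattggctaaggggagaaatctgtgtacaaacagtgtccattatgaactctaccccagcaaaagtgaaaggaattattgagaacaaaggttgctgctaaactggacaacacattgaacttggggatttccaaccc
A match describes letters in a window and is not a site of binding. The absence of a match in Ubd says only that these letters are not in that window.

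Ubd and Moxd1 had the highest ratios among the genes of at least 100 CPM that were named by rule. Ubd (ENSMUSG00000035186, chr17:37193892-37196095, plus strand), a ubiquitin-like modifier induced by inflammatory cytokines, stood at 52.3 CPM in PBS and 925 in CFA members (17.7, 13.7 to 23.3). Ubd was detected in 7.50% and 42.7% of members. In the other gate cells it stood at 0.732 and 8.48 CPM. Of the 6 PBS members with Ubd 5 also had Stab2, but in CFA only 3 of 76 did. The PBS member with Ubd and no Stab2 held 28 Ubd UMIs, and the same cell held most of the PBS Cd74 UMIs. Without Stab2 members the ratio was 35.8. Moxd1 (ENSMUSG00000020000, chr10:24223517-24302790, plus strand), a monooxygenase-like protein, stood at 5.23 CPM from 6 UMIs and 134 CPM from 386 UMIs (25.6, 11.7 to 70.3), while the other gate cells stood at 7.91 and 7.90 CPM.

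In the CFA members Ubd was found in the same cells as Cxcl9, Moxd1 and Tacr1. Of 96 members with Cxcl9, 71 also had Ubd, as did 54 of 75 with Moxd1 and 34 of 41 with Tacr1, against 76 of all 178. Deeper cells show more genes of any kind, so these counts share the depth of the cells. By subset, Ubd stood at 1299 CPM in CFA members with Selp or Ackr1 and 663 in Plvap-only members, against 61.4 in Stab2 members.

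Chemokine genes differed in direction. Cxcl9, a ligand that draws activated T cells, stood at 446 and 1089 CPM (2.44, 2.22 to 2.69). In PBS 84.6% of its UMIs lay in 1 cell, and without the top cell of each library the ratio was 14.5. That PBS cell, of 56526 UMIs, held 433 Cxcl9, 186 Cd74 and 28 Ubd UMIs. It carried 1 Selp UMI and 12.5% of the UMIs of the PBS Selp or Ackr1 subset. A Cxcl9 UMI was present in 22.5% and 53.9% of members. Cxcl10, a related ligand, stood at 309 and 281 CPM, and its ratio of 0.910 became 1.93 without the top cells. Ccl2, a monocyte chemoattractant, stood at 107 and 2.78 CPM, with 93.5% of the PBS UMIs in 1 cell and a UMI in 5% and 1.12% of members. Cxcl1, a neutrophil chemoattractant, stood at 84.5 and 35.7 CPM (0.423, 0.317 to 0.564), and Cxcl12 at 856 and 485 CPM (0.566, 0.521 to 0.615). Of the list of chemokines and cytokines 3 of 19 genes were at least 2-fold higher and 4 at least 2-fold lower.

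**Figure D5:**
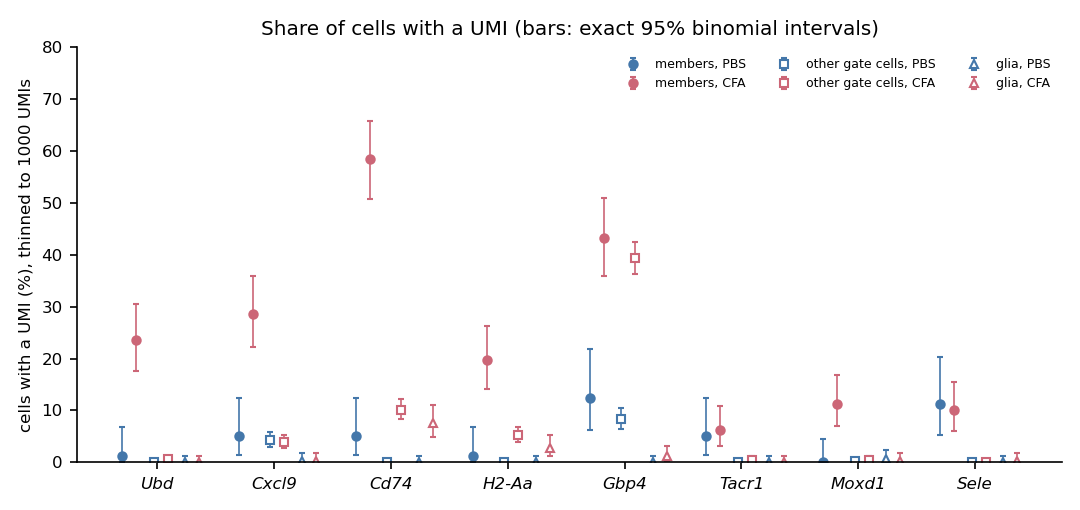
Percent of cells with a UMI of each of 8 genes after thinning every cell to 1000 UMIs (y axis), for members, other gate cells and glia of each library, with exact 95% binomial intervals as bars. Cd74 was seen in 5% of PBS and 58.4% of CFA members, Ubd in 1.25% and 23.6%, and Sele in 11.3% and 10.1%.

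Adhesion genes did not share a direction. Of 21 measured genes of the list 2 were at least 2-fold higher and 1 at least 2-fold lower in CFA, with a median log2 ratio of 0.08. Sele stood at 152 and 87.1 CPM (0.575, 0.472 to 0.701), and it was detected in 37.5% and 28.7% of members, or 11.3% and 10.1% after thinning. Icam1 stood at 593 and 313 CPM (0.528, 0.477 to 0.584). Its ratio was 1.11 when every gate cell with at least 3 UMIs of another cell type's list was left out. That setting also dropped members with only a few such UMIs, and it kept a minority of members in both libraries. Vcam1 stood at 378 and 326 CPM (0.862, 0.768 to 0.968). Its ratio was 1.20 without Stab2 members, 1.06 without the hemoglobin limit and 1.64 without the cells that held such UMIs. Icam2 stood at 184 and 193 CPM (1.05, 0.893 to 1.23). Glycam1, a mucin-like selectin ligand of high endothelial venules, had a UMI in 1 PBS and 8 CFA members, all of them with Selp or Ackr1, and 7 of the 8 had Ackr1. The number of UMIs was 1 in PBS and 66 in CFA.

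Receptors for inflammatory and vasoactive signals were in part higher. Il1r1 stood at 114 and 255 CPM (2.24, 1.86 to 2.72) and was detected in 48.8% and 67.4% of members, or 8.75% and 23.03% after thinning. Tacr1 (ENSMUSG00000030043, chr6:82402334-82560104, plus strand), the receptor of the neuropeptide substance P, stood at 31.4 and 181 CPM (5.78, 4.12 to 8.34) with a UMI in 11.3% and 23.03% of members. After thinning it was seen in 5% and 6.18%, with intervals of 1.38% to 12.3% and 3.12% to 10.8%, so the share of cells did not show the difference at this depth. In the other gate cells Tacr1 stood at 0.879 and 20.6 CPM, a ratio of 23.5. The histamine receptor gene Hrh1 stood at 7.84 and 22.6 CPM (2.88, 1.43 to 6.57) and the bradykinin receptor gene Bdkrb2 at 11.3 and 48.2 CPM (4.26, 2.41 to 8.20). Calcrl, the receptor partner for calcitonin gene-related peptide and adrenomedullin, stood at 395 and 458 CPM (1.16, 1.04 to 1.29). Of the vasoactive list 5 of 23 were at least 2-fold higher and 2 at least 2-fold lower.

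Thbs1, the matrix protein thrombospondin 1, stood at 40.1 and 223 CPM (5.56, 4.12 to 7.67). In CFA it stood at 396 CPM in members with Selp or Ackr1 against 64.9 in Plvap-only members, and in the other gate cells it stood at 60.5 and 55.5 CPM. Ehd3, an endosomal transport protein, stood at 17.4 and 126 CPM (7.25, 4.63 to 12.01) against 10.5 and 10.98 CPM outside the members. Hspa1a, a heat shock protein of the stress response, stood at 13.9 and 140 CPM (10.0, 6.09 to 17.7) against 62.0 and 221 CPM. Tmem252 stood at 77.5 and 434 CPM (5.60, 4.51 to 7.02). The serpin gene Serpina3g stood at 13.9 and 127 CPM (9.09, 5.52 to 16.1).

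Among the 12 genes with the lowest ratios were Stab2, Esm1 and Lyve1, genes of sinusoidal, angiogenic and lymphatic endothelium. Stab2 (ENSMUSG00000035459, chr10:86841198-87008025, minus strand) stood at 246 and 40.6 CPM (0.165, 0.132 to 0.206), with a UMI in 12.5% and 5.06% of members. Esm1 stood at 104 and 15.96 CPM (0.154, 0.107 to 0.218), with a UMI in 21.3% and 3.93%. Lyve1, a hyaluronan receptor of lymphatic and sinusoidal endothelium, stood at 102 and 6.94 CPM (0.0681, 0.0401 to 0.110), with 63.2% of the PBS UMIs in 1 cell. Of the sinusoidal list 5 of 9 genes were at least 2-fold lower and none 2-fold higher, with a median of -1.10, and of the lymphatic list 3 of 9 were lower, with a median of -0.77. Of the tip and angiogenic list, which holds Esm1, 1 of 15 was at least 2-fold higher and 2 lower, with a median of -0.04. Fewer cells of a kind and less transcript per cell both enter such sums. Of the arterial list 5 of 17 genes were at least 2-fold higher, with a median of 0.20, among them Gja4 at 49.6 and 109 CPM (2.19, 1.65 to 2.96). The summed list was lower in CFA, at 3094 CPM in PBS and 2485 in CFA members. After thinning, at least 3 UMIs of it were held by 45% and 27.0% of members, shares that also vary with the draw. Gja4 was higher in CFA in Plvap-only members (74.2 and 236 CPM) and lower in the Selp or Ackr1 subset (35.4 and 3.56). Stab2 members had 0 Gja4 UMIs in PBS and 15 in CFA, all in 1 cell.

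Most genes of the lipid and immediate early lists had ratios under 1, few of them past 2-fold. Of the lipid list 3 of 15 genes were at least 2-fold lower and none 2-fold higher, 3 had a ratio over 1, and the median was -0.60. Fabp4, a fatty acid binding protein, stood at 7113 and 4185 CPM (0.588, 0.572 to 0.605), and Apoe, a lipoprotein component, at 765 and 262 CPM (0.343, 0.310 to 0.378). Of the immediate early list 2 of 21 genes were at least 2-fold higher and 2 lower, 4 had a ratio over 1, and the median was -0.44. Fos stood at 2430 and 1552 CPM (0.639, 0.609 to 0.670) and Egr1 at 1659 and 950 CPM (0.573, 0.540 to 0.607). The other gate cells had ratios of 0.564 for Fabp4, 0.675 for Fos and 0.728 for Egr1.

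Transcripts of other cell types also stood at unequal levels. Fibroblast list genes summed to 2596 CPM in PBS and 914 in CFA members, and 8 PBS and 7 CFA members with at least 50 such UMIs held 90.4% and 86.8% of them. Mural list genes summed to 1116 and 759 CPM, and erythroid list genes to 753 and 226 CPM. Of the fibroblast list 8 of 12 genes were at least 2-fold lower in CFA. Sparc, which both fibroblasts and endothelium make, stood at 3886 and 2122 CPM (0.546, 0.525 to 0.568). The part of these cells in the lower genes above was not tested.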

How the data were processed

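The deposited values were raw UMI counts per gene and barcode, which the authors obtained with Cell Ranger 7.0.1 on mm10 (GRCm38), per the submitters' processing notes. The labels assigned 1 library to PBS and 1 to CFA. The study's limits on cells (500 genes, 10% mitochondrial UMIs) and a 1% limit on hemoglobin UMIs were applied here. Glia were kept cells without the endothelial gate genes or Ptprc that held at least 3 UMIs of glial marker genes. Fibroblasts were kept cells without these genes that held at least 10 UMIs of Col1a1, Col3a1 and Dcn summed. Cells could be in both classes. Doublets were not called. UMIs were summed over the cells of a class and scaled to CPM. Genes with at least 20 UMIs in the classes compared were measured. No test was run. Ratios carry conditional binomial intervals and shares exact Clopper-Pearson intervals, for counting error only, and a count of 0 was read as up to 3 counts. Shares were also taken after thinning to 1000 UMIs (seed 1). Genes were named by rule: marker and study genes, the 12 highest and 12 lowest CFA to PBS ratios, the 12 highest and 8 lowest against other gate cells (at least 100 CPM in 1 library, leaving out mitochondrial, ribosomal, hemoglobin and immunoglobulin genes and genes under 0.2 of their level in glia, fibroblasts, mural or Ptprc-positive cells), and the extremes of 31 gene lists. Genes of the subsets, Glycam1, Cxcl1, Hrh1, Bdkrb2 and others outside it were chosen after their values were seen. Members and lists were chosen with earlier results of these data known. The alternatives were 16 planned and 2 chosen after the data were seen. Gene positions are from GENCODE M21 on GRCm38. Python 3.11.15, numpy 2.4.6, scipy 1.17.1, pandas 2.3.3 and matplotlib 3.10.9 were used, and the functions were tested on simulated data.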

Additional observations from a re-analysis of the deposited data

Results flagged for a closer look

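Of 554 named and list genes, 6 stood on opposite sides of equality in members and in the other gate cells, with at least a 2-fold difference in members, intervals that did not reach 1 in either class and at most 50% of the UMIs in 1 cell. With 1 library per condition the difference was not tested, and such intervals cover counting error only. Edn1, which encodes the constrictor endothelin 1, had a CFA to PBS ratio of 2.71 (2.07 to 3.61) in members and 0.794 (0.680 to 0.926) in the other gate cells. Its ratio in members ran from 1.67 with Selp or Ackr1 required to 16.9 without gate cells holding at least 3 UMIs of another cell type's list. Serpinb1a, an inhibitor of neutrophil proteases, had 5.90 (3.83 to 9.55) in members and 0.472 (0.367 to 0.602) in the others. Myh11, the smooth muscle myosin, had 2.89 (1.80 to 4.87) in members, from 20 PBS and 145 CFA UMIs, and 0.641 (0.590 to 0.696) in the others. The top cell held 45% of its PBS and 42.1% of its CFA UMIs in members, 7 CFA members held 78.7% of the UMIs of the mural list, and 6 of the 12 mural genes were at least 2-fold lower in CFA members. The adhesion receptor gene Adgrg6 had 0.237 (0.179 to 0.313) in members and 1.80 (1.29 to 2.52) in the others. Rbp7, a retinol-binding protein of capillaries, had 0.297 (0.235 to 0.374) and 1.94 (1.78 to 2.12). Timp4 had 0.381 (0.268 to 0.542) and 1.24 (1.19 to 1.30).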

How the results depend on the processing

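No paired analysis was possible because each condition had 1 library. The share of members was higher in CFA than in PBS in each cell setting, but its size moved. In PBS it was 4.70% when Selp or Ackr1 was required, 5.43% with the rule on cells thinned to 2000 UMIs and 5.98% with cells of other types left out. In CFA these shares were 8.26%, 8.79% and 7.40%, and the share was 11.6% with 6 rule UMIs and also 11.6% without the deepest 5% of gate cells. Leaving out cells of other types dropped each gate cell with at least 3 UMIs of another cell type's list. These lists were mural, fibroblast, glia, myeloid, lymphoid, cartilage and bone, and muscle. The median member held 3 fibroblast list UMIs in PBS and 4 myeloid list UMIs in CFA. The setting therefore also dropped members with only a few such UMIs, and it kept 26 PBS and 27 CFA members. Genes at least 2-fold higher in CFA numbered 366 with cells of other types left out, 314 with at least 50 UMIs and 904 with 1 UMI in each library, and those at least 2-fold lower 286 and 1863 under the last 2. Against the other gate cells the higher genes numbered 157 with other types left out, 425 by the mean over cells and 461 with 1 UMI in each library, and the lower genes 247 with other types left out and 322 with at least 50 UMIs. The adhesion median became -0.27 with other types left out, and the lipid median -1.03 when Selp or Ackr1 was required. Directions turned for Vcam1 (1.06 without the hemoglobin limit, 1.64 with other types left out, 1.20 without Stab2 members), Icam1 (1.11 with other types left out), Selp (0.901 by the mean over cells) and Ackr1 (0.707 with other types left out). Ratios near 1 also crossed it, for Cxcl10 (0.225 to 5.66 over the alternatives), Plvap (0.633 to 1.29) and Mki67 (0.359 to 2.04). The cause was not tested. Over all alternatives the ratio ran from 11.2 to 69.3 for Ubd, 10.5 to 86.8 for Moxd1, 4.69 to 60.5 for Cd74, 4.44 to 16.5 for H2-Aa, 5.25 to 21.1 for H2-Eb1, 5.51 to 10.7 for Gbp4 and 3.58 to 7.87 for Tacr1. A gene seen in no cell of the 80 PBS members could still be carried by up to 3.75% of them.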

Other observations

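Of the vascular basement membrane list 1 of 20 genes was at least 2-fold higher in CFA members, and this was Col18a1 at 111 and 258 CPM (2.33, 1.93 to 2.84). Col15a1, another collagen of vessel walls, stood at 410 and 599 CPM in members and at 225 and 78.8 CPM in the other gate cells. Of the complement list 4 of 12 genes were at least 2-fold higher, among them Cfb, complement factor B, at 13.9 and 72.2 CPM (5.18, 3.11 to 9.23) and Serping1, the inhibitor of complement component C1, at 157 and 326 CPM (2.08, 1.77 to 2.45). Of the haemostasis list 2 of 18 were higher and 1 lower, and Procr, the endothelial protein C receptor, stood at 35.7 and 80.9 CPM (2.26, 1.62 to 3.24). Of the caveolae list none of 13 and of the pan-endothelial list none of 17 passed 2-fold in either direction.

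Mitotic transcripts lay mostly in few cells. At least 5 UMIs of 10 mitotic genes were held by 4 PBS and 4 CFA members, which carried 79.7% and 89.4% of these UMIs. Mki67, the proliferation marker, had a UMI in 10 PBS members (12.5%) and 8 CFA members (4.49%), while its summed level was 24.4 and 27.1 CPM. Cd14, the co-receptor for bacterial lipopolysaccharide, had 2 UMIs in PBS members and 228 in CFA members. In CFA it stood at 151 CPM in members with Selp or Ackr1 and no Stab2, at 6.41 in Plvap-only members and at 12.7 in the other gate cells. Olr1, a receptor for oxidized lipoprotein, had UMIs in no Plvap-only member of either library, and stood at 57.6 and 113 CPM in members with Selp or Ackr1 and no Stab2. Cd14 and Olr1 were chosen after their values were seen.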
